A study of Mus musculus with 9 samples.

Results

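The squamocolumnar junction of the mouse stomach was compared with an even mixture of the tissues on either side of it. In each series, the signal of every probe set on the junction array was set against the mean linear signal of the corpus array and the forestomach array of the same series, called the midpoint here. All 9 of the 9 arrays entered this comparison, as 3 corpus, 3 forestomach and 3 junction arrays. Of 18193 genes with a probe set of their own, 13637 passed the filter on low signal and were tested.

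The tissue came from 9 female C57Bl/6 mice aged 3 months, normal, healthy, untreated and kept on a standard diet under SPF conditions. Corpus is the acid-secreting glandular stomach, forestomach is the non-glandular part lined by stratified squamous epithelium, and the junction stripe holds the limiting ridge between them. The stripes lay side by side and were 600 to 800 µm wide. Each array carried RNA pooled from 3 mice, so the 3 series are separate pools and the spread between them holds both biological and technical variation. The stripes hold every cell type of the tissue dissected, so fewer cells of a type and less RNA per cell cannot be told apart in any value below. The labelled tissues carried their markers. The proton pump subunit Atp4a ran from 9337 to 13488 in corpus and from 45.6 to 645 in forestomach, while the basal keratin Krt5 ran from 78.1 to 201 and from 4726 to 5841. Forestomach array 1 held less corpus-type signal than forestomach arrays 2 and 3, as the Atp4a values of 45.6, 376 and 645 show. Array medians lay between 47.9 and 57.1 and the Gapdh control's signal at its 3′ end over that at its 5′ end, a measure of RNA integrity, between 0.697 and 0.926, highest in forestomach. With 3 arrays per tissue, their number sets the precision of these values.

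At a squamocolumnar junction a stratified squamous epithelium, renewed from a basal layer, gives way within a few cells to a single layer of columnar cells that opens into glands. Such borders are known as sites where squamous cells carry keratins of activated epithelium and where mucous and duct-like gland cells gather. A stripe cut across the border that held only the neighbouring tissues would give, on a linear signal scale, a value between those of the neighbours, and the midpoint only if both contributed equal amounts of RNA. A junction signal above both neighbours, or below both, is reached by no mixture of them in any share.

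By limma, 335 genes (2.46%) rose above the midpoint and 564 (4.14%) fell below it at an adjusted p under 0.05, 899 (6.59%) in all. The counts of calls on each list below are to be read beside these shares. Changes are given as log2((junction + 9.8) / (midpoint + 9.8)), the mean log2 ratio of the 3 series. The value after ± is limma's moderated standard error, which borrows variance from all probe sets. It is therefore not the plain spread of the 3 series, and can be smaller or larger than that spread gives. Folds are on this scale, which understates the change of dim genes. At least a 2-fold change was seen for 130 of the genes above and 200 of those below. The junction array lay above the midpoint in all 3 series for 2810 genes (20.6%) and below it for 4525 (33.2%). It lay above both neighbours in all 3 series for 678 genes (4.97%) and below both for 1012 (7.42%), whatever their p. Both conditions together held for 210 genes above (1.54%) and 207 below (1.52%). The median log2 ratio of all genes was -0.06, so the ratios sit close to 0 as a whole. After scaling the arrays to 1 median, 410 genes passed above and 455 below, which moved the share of calls above from 37.3% to 47.4%.

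With 1 ratio per series the test has 2 residual degrees of freedom, and the calls rest on all 3 series. The lowest adjusted p was 0.00887 and 3787 genes had an unadjusted p under 0.05. Leaving out series 1, 2 or 3 left 21, 0 and 0 calls, and 0 genes passed without the filter on low signal or with limma's trend and robust options (3731 and 3627 genes at an unadjusted p under 0.05). None of the 899 genes changed sign in these 5 settings. Dropping the filter or using the limma options leaves a probe set's ratios as they are, so its sign could not change. Leaving out a series keeps the other ratios behind each call, so a change of sign was unlikely. The unchanged signs therefore say little about the calls.

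**Figure D1:**
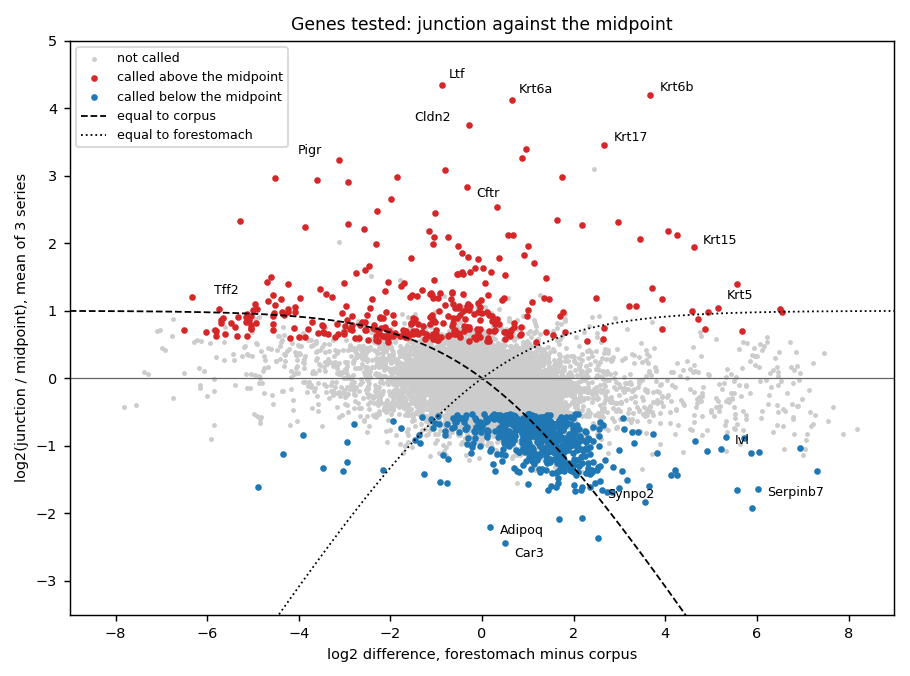
Each point is 1 of the 13637 genes tested, with its log2 difference between forestomach and corpus on the x axis and its log2 ratio of junction to midpoint on the y axis. Red points (335) were called above the midpoint and blue points (564) below it; the dashed and dotted lines mark a junction signal equal to corpus or to forestomach, and points above both lines, such as Ltf, Krt6b and Cldn2, exceed both neighbours.

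The largest rises held keratins of activated squamous epithelium. Keratin 6a (Krt6a), which epidermis makes at wound edges and in other activated states, had junction signals of 1376, 2237 and 1855 in series 1, 2 and 3. Its corpus signals were 100, 53.6 and 56.9, and its forestomach signals 70.5, 139.6 and 141. Every junction array lay far above every other array, 17.4-fold over the midpoint (log2 ratio 4.12 ± 0.13, adjusted p = 0.00887). Keratin 6b (Krt6b) had junction signals of 4302, 4614 and 6081 against midpoints of 165, 383 and 275, a log2 ratio of 4.20 ± 0.23 (adjusted p = 0.0145). These keratins are close copies of each other, so their probe sets may share signal. Keratin 16 (Krt16), a partner of the type 6 keratins, stood at 511, 798 and 597 in the junction against 17.5, 35.9 and 42.2 in corpus and 45, 130.1 and 53 in forestomach, 10.5-fold over the midpoint. Keratin 17 (Krt17), found in activated and appendage epithelium, stood at 716, 1168 and 1056 against midpoints of 62.9, 110.0 and 68.6, 11-fold. For both the adjusted p was 0.0132. In each of these 4 keratins the lowest junction array exceeded the highest of the 6 neighbouring arrays.

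Of the 29 genes tested on the list of stress keratins and wound-edge genes, 7 rose above the midpoint (2.46% of all genes did), 0 fell and 22 did not pass. All 7 were above both neighbours in every series. The other 3 were the calprotectin subunits S100a8 (2.34 ± 0.29) and S100a9 (1.40 ± 0.12) and, chosen after its values were seen, the collagenase gene Mmp13 (0.81 ± 0.09). The median log2 ratio of the list was 0.29 against -0.06 for all genes. Members that did not pass spread to both sides. The beta-defensin gene Defb4, an antimicrobial peptide of squamous epithelium, had junction signals of 921, 1241 and 1526 but forestomach signals of 15.9, 509.6 and 576, and its log2 ratio of 3.10 ± 0.57 had an adjusted p of 0.0542. The interleukin-1 receptor antagonist gene Il1rn stood at 0.72 ± 0.13 (adjusted p = 0.0503), the activin antagonist gene Fst at -0.90 ± 0.22 and the interleukin gene Il1f5 at -0.70 ± 0.16. These 4 genes were chosen after their values were seen.

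**Figure D2:**
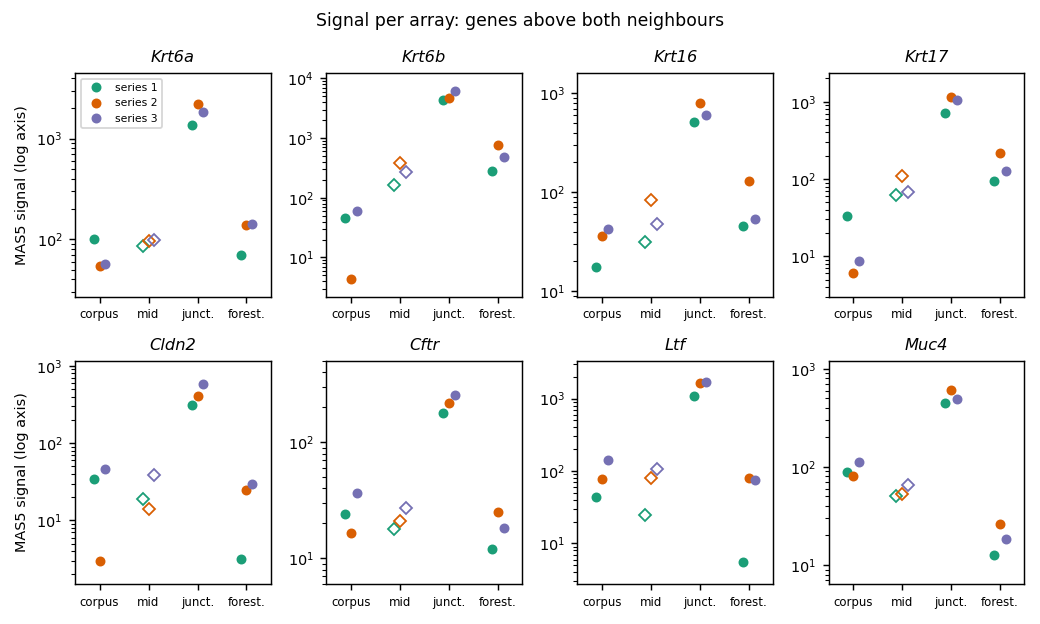
Signal per array on a log axis for 8 genes above both neighbours, with corpus, the midpoint (open diamonds), the junction and forestomach along the x axis and the 3 series in 3 colours. In each panel all 3 junction points lie above all corpus and forestomach points; Krt6a, for example, runs from 1376 to 2237 in the junction and reaches at most 141 elsewhere.

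Basal cells of the squamous epithelium, which divide and are anchored to the basement membrane, gave a mixed picture. Of 27 basal layer genes tested, 5 rose, 1 fell and 21 did not pass (median 0.33), where 2.46% of all genes rose and 4.14% fell. Keratin 15 (Krt15), a basal keratin, exceeded both neighbours, with 985, 1622 and 1878 in the junction against 425, 790.0 and 1070.2 in forestomach and 23.9, 4.9 and 41.6 in corpus. Its log2 ratio was 1.94 ± 0.11 (adjusted p = 0.0145), although forestomach array 3 was higher than junction array 1. Integrin beta 4 (Itgb4), an anchor of basal cells, was nearly as high in corpus (314, 344 and 349) as in forestomach (388, 306 and 260.3) and reached 500.3, 554 and 529 in the junction (0.68 ± 0.11). Podoplanin (Pdpn), a surface protein of basal cells and lymph vessels, was also above both neighbours (0.69 ± 0.11).

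The classical basal keratins rose above the midpoint without exceeding both neighbours. Krt5 measured 4705, 5861 and 6392 in the junction and 4726, 5841 and 5266 in forestomach, so the junction mean was 107% of forestomach (1.05 ± 0.11, adjusted p = 0.0243). Its partner Krt14 was at 100.5% of forestomach (0.98 ± 0.14), while another of its 3 probe sets gave -0.05. Trp63, the p63 gene of squamous progenitors, was dimmer and stood at 887, 1154 and 1419 against midpoints of 817, 882 and 816, a log2 ratio of 0.43 ± 0.16 that did not pass (adjusted p = 0.17). The transcription factor gene Sox2 gave 0.36 ± 0.13 and did not pass either (adjusted p = 0.177). Caveolin 1 (Cav1), a membrane protein of many cell types including muscle and endothelium, fell to 1273, 1330.1 and 1090.5 against 3634, 4136 and 4173 in forestomach, close to its corpus level (-1.101 ± 0.11).

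Keratins of the layers above the basal one split by gene. Keratin 79 (Krt79), known from gland duct openings in skin, was alike in corpus (146, 121 and 134) and forestomach (108, 125 and 124) and rose to 412, 433 and 396 in the junction, 3.11-fold over the midpoint (adjusted p = 0.0145). The suprabasal pair Krt1 and Krt10 rose with log2 ratios of 1.002 ± 0.11 and 0.98 ± 0.10, at 105% and 102% of forestomach. Both were bright, with forestomach means of 11947 and 18055, and the part of saturation in their ratios was not tested. The desmosomal cadherin gene Dsc2, mainly a corpus transcript here, was slightly above corpus in every series (0.94 ± 0.10). The homeobox gene Barx2 fell to 4.8, 9.2 and 10, under the filter level of 29.0 to 36.5, against 88.9, 61.3 and 55.8 in forestomach (-1.37 ± 0.21). In all, 4 of 24 genes rose, 1 fell and 19 did not pass (2.46% of all genes rose and 4.14% fell).

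Late squamous genes, those of the cornified envelope that seals the dead outer layer, differed with their brightness. Of 47 tested, 3 rose, 2 fell and 42 did not pass (2.46% of all genes rose and 4.14% fell), with a list median of 0.13. Keratinocyte differentiation associated protein (Krtdap) rose with 12872, 13500.0 and 15110.5 against midpoints of 7309, 7599 and 7664 (0.87 ± 0.10), and the late envelope genes Lce3a and Lce3b rose by 1.03 ± 0.15 and 1.17 ± 0.13. Involucrin (Ivl), an envelope scaffold, fell to 229.5, 270.4 and 233 against midpoints of 487, 488 and 393 (-0.87 ± 0.11, adjusted p = 0.0315). Transglutaminase 3 (Tgm3), which cross-links the envelope, fell to 24.9% of its forestomach signal (-1.04 ± 0.12). Loricrin (Lor), its main structural protein, reached 8082, 10003 and 10917 and did not pass (0.69 ± 0.14, adjusted p = 0.0654). The list median turned to -0.35 without probe sets reaching a signal of 5000, and over all forestomach-high genes (4-fold or more over corpus) the median was 0.14 above that signal, -0.36 from 500 to 5000 and -0.30 up to 500. Bright probe sets can saturate, and the part of saturation in these rises was not tested.

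Proteases and inhibitors of desquamation, the shedding of outer cells, moved in both directions. Of 29 tested, 3 rose and 4 fell (2.46% of all genes rose and 4.14% fell). The cystatin gene Stfa3 was above both neighbours in every series, at 353, 360.4 and 661 against 112, 166 and 175 in forestomach (2.31 ± 0.17), although its near-identical relatives may share its probe set. The protease inhibitor gene Spink12 was likewise above both, at 578, 1797 and 1335 against 379, 484 and 506 (2.19 ± 0.28). The kallikrein gene Klk10 rose (0.73 ± 0.12), whereas Klk6 fell to 62.9, 117 and 115 against midpoints of 307, 298 and 266 (-1.51 ± 0.22). Klk8 and the inhibitor gene Wfdc12 fell too (-1.098 ± 0.18 and -0.83 ± 0.12). The serpin gene Serpinb7 fell furthest on the list, to 162, 251 and 223 against 1303, 1388 and 1291 in forestomach, 16% of that tissue (-1.64 ± 0.14, adjusted p = 0.0225).

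Enzymes of the squamous lipid barrier had 0 rises and 2 falls among 27 tested (median -0.20), against 2.46% and 4.14% of all genes. Sdr9c7, an enzyme of barrier lipid synthesis, was at 261, 344 and 329 in the junction and 262, 280.4 and 264 in corpus, against 876, 867 and 888 in forestomach (-0.87 ± 0.12). The ceramidase gene Acer1 had a log2 ratio of -0.81 ± 0.14. Among the largest falls of all genes was Skint10, of a family expressed in skin and thymus epithelium, which stood at 60.3, 85.9 and 100.5 against 688, 653 and 654 in forestomach (-1.92 ± 0.17). Rdh9, a retinol dehydrogenase, gave -1.83 ± 0.13, and the lipase gene Plcxd1 -1.65 ± 0.22, with another probe set of it at -0.09.

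Genes of simple and duct-like epithelium formed the second group of large rises. Of 33 tested, 15 rose, 1 fell and 17 did not pass (2.46% of all genes rose and 4.14% fell). In all 3 series 12 of them lay above both neighbours (4.97% of all genes did). Claudin 2 (Cldn2), a channel-forming tight junction protein of leaky epithelia, was near background in corpus (34.1, 3 and 46.9) and forestomach (3.2, 24.9 and 29.3) and reached 313, 407 and 586 in the junction. Its log2 ratio was 3.76 ± 0.15 (adjusted p = 0.0132), and its other probe set gave 1.99. The chloride channel gene Cftr, which drives fluid secretion in ducts, stood at 178, 219 and 253 against midpoints of 18, 20.8 and 27.3, 7.11-fold (adjusted p = 0.00887). The corpus and forestomach signals of Cftr reached at most 36.5, so this fold depends on the pseudocount. The membrane mucin gene Muc4 reached 444, 606 and 496 against 89.1, 80.1 and 112 in corpus and 12.8, 26.3 and 18.4 in forestomach (2.98 ± 0.14). No neighbouring array came near the junction arrays for these 3 genes.

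Other claudins had calls in both directions, and the simple keratins rose. Claudin 7 (Cldn7) stood at 206, 201 and 218 against midpoints of 34.9, 24.8 and 31.2 (2.45 ± 0.11), and claudin 3 (Cldn3) gave 1.79 ± 0.30. The corpus and forestomach signals of Cldn3 reached at most 33, near the filter level of 29.0 to 36.5. Claudin 23 (Cldn23) fell to 19% of its forestomach level (-1.43 ± 0.23), and claudin 15 (Cldn15) fell below both neighbours, at 50.4, 48.6 and 64.8 against midpoints of 109, 105 and 94.8 (-0.82 ± 0.14, adjusted p = 0.0473). Keratin 7 (Krt7), a keratin of ducts, was higher in forestomach (685, 676 and 603) than in corpus (235, 213 and 282) and higher still in the junction, at 1034, 1246 and 1625 (1.49 ± 0.16). The simple keratins Krt8 and Krt19 rose above the midpoint with log2 ratios of 0.79 ± 0.11 and 1.09 ± 0.11, at 89.5% and 112% of corpus. Prominin 1 (Prom1), a membrane protein of apical protrusions, did so as well (1.02 ± 0.10), at 105% of corpus. Outside the rule for naming, the homeobox gene Onecut2 (1.63 ± 0.13), the microvillus gene Vil1 (1.56 ± 0.18), Krt20 (1.39 ± 0.11) and the epithelial adhesion gene Epcam (1.21 ± 0.10) were above both neighbours too.

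The start regions of 4 genes above both neighbours are shown because each carries a TATA box motif where such a box is usually placed. Searched as the letters TATAAA on both strands of windows from 250 bases before to 50 after the start (RefSeq, GRCm38.p6), it occurs in 31 of the 150 windows of genes called above and above both neighbours (20.7%), 16 of 98 called above but between the neighbours (16.3%), 46 of 423 called below (10.9%) and 886 of 10935 tested (8.1%). On the gene's strand and 20 to 40 bases before the start, the shares were 10%, 10.2%, 3.55% and 1.86%, and over all 27025 windows 14.2% held it anywhere and 2.22% at that place. These are matches of letters, not measured sites. Capitals mark the match, 35 bases before the start in Cldn2 (chrX:139800558-139800857, plus strand), 36 in Muc4 (chr16:32735636-32735935, plus strand), 30 in S100a8 (chr3:90668821-90669120, plus strand) and 40 in the neutrophil surface gene Cd177 (chr7:24760262-24760561, minus strand).
Cldn2: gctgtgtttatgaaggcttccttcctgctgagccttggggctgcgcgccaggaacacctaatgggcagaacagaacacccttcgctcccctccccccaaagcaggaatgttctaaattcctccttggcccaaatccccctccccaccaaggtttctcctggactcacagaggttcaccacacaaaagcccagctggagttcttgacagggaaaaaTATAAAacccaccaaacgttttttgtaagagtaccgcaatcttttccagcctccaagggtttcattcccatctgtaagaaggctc
Muc4: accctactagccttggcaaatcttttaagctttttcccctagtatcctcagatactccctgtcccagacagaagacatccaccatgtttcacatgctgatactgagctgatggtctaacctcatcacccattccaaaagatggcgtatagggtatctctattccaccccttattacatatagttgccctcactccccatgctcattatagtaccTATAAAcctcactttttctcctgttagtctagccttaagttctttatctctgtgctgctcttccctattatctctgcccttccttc
S100a8: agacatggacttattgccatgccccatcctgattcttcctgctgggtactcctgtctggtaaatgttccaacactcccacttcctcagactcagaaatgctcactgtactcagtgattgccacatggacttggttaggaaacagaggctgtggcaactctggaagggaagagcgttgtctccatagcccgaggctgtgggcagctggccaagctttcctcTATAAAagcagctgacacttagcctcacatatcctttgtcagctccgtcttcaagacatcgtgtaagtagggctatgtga
Cd177: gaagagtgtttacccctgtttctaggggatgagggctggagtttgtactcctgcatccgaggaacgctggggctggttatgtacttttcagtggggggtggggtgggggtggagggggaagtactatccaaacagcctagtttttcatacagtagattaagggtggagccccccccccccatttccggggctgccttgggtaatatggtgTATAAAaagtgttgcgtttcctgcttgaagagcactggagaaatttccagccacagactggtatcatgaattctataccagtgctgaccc

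Neck mucous cells lie in the upper glands and secrete mucus and defence proteins. Of 16 neck mucous genes tested, 11 rose, 1 fell and 4 did not pass (2.46% of all genes rose and 4.14% fell). The list median was 0.75, with 0.87, 0.77 and 0.78 in series 1, 2 and 3. Lactoferrin (Ltf), an iron-binding defence protein of secretions and of neutrophil granules, had the highest log2 ratio of any gene named by the rule, at 4.34 ± 0.24 (adjusted p = 0.0145). It stood at 1093, 1641 and 1678 in the junction against 44.2, 78.6 and 142 in corpus and 5.5, 81 and 74.5 in forestomach. The polymeric immunoglobulin receptor (Pigr), which carries IgA into secretions, reached 1612, 1315 and 1793 against 275, 132 and 601 in corpus (3.23 ± 0.27). The airway-type defence protein gene Bpifb1 was bright in corpus (2665, 2210.3 and 4479) and brighter in the junction (7514, 7664 and 8254, 2.32 ± 0.19). Aquaporin 5 (Aqp5), a water channel of secretory glands, was 4.65-fold over the midpoint, and Wfdc2, a secreted protease inhibitor chosen after its values were seen, 3.63-fold. The only fall on the list was Glipr1 (-0.97 ± 0.11).

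Several more secreted proteins were named by their size. Dmbt1, a mucosal defence protein, stood at 2184, 2068 and 2646 against midpoints of 231, 244 and 439 (2.93 ± 0.15). The goblet cell product Clca1 stood at 1328, 1396 and 1475 against 458, 166 and 466 in corpus and 0.5, 14.5 and 3.1 in forestomach (2.97 ± 0.29). Wfdc18, related to Wfdc2, gave 3.08 ± 0.19, and chymosin (Cym), a milk-clotting protease, 2.48 ± 0.32, both above both neighbours in every series. The elastase gene Cela1 rose to 2034, 1902 and 2380.2 against 716, 654 and 897 in corpus (2.29 ± 0.10). With Spink1 (1.70 ± 0.22) and colipase (Clps, 1.19 ± 0.12) it made 3 rises among 11 pancreatic acinar enzyme genes tested, whose median was -0.04 (2.46% of all genes rose). Colipase varied widely in forestomach (80.6, 1448 and 4432).

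Surface mucous cells line the gastric pits and make the mucus layer. Of their 25 genes tested 11 rose and 0 fell (2.46% of all genes rose and 4.14% fell). The junction lay above the midpoint in all 3 series for 23 of them (20.6% of all genes did). Gastrokine 3 (Gkn3) was above both neighbours, at 7164, 5842 and 7933 against 3441, 1553 and 3364 in corpus (2.24 ± 0.14). Agr2, a folding enzyme of mucin-making cells, was above corpus in each series, at 7085, 6620.1 and 6092 against 6146, 5759 and 4986 (1.20 ± 0.09). The trefoil gene Tff2 was at 112% of corpus (1.10 ± 0.13), and Galnt6, which starts mucin sugar chains, at 121% (0.98 ± 0.13). The mucin gene Muc5ac measured 10381, 8976 and 8721 against midpoints of 7243, 6978 and 5402 and did not pass (0.52 ± 0.11, adjusted p = 0.0654). Gkn1 and Tff1 did not pass either (0.57 ± 0.11 and 0.74 ± 0.16, adjusted p = 0.0628 and 0.0725), and the forestomach signal of Tff1 ran from 470.1 to 6219. The list median was 0.61, 0.47 without bright probe sets and 0.13 if forestomach made up 25% of the mixture.

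Tuft cells are rare chemosensory cells of gland and pit epithelium, and 8 of 17 of their genes rose with 0 falls, all 8 above both neighbours in every series. Of all genes 2.46% rose and 4.14% fell, and 1.54% rose and also lay above both neighbours in every series. The list median of 0.89 was the highest of the 42 lists. The kinase gene Dclk1 stood at 343, 384 and 360.2 against 134, 142 and 181 in corpus and 30.6, 48.1 and 60.8 in forestomach (1.78 ± 0.13). The leukotriene pathway genes Alox5 and Alox5ap, which leukocytes express too, gave 1.57 ± 0.10 and 1.23 ± 0.14, and the adaptor gene Sh2d6 1.24 ± 0.11. The taste channel gene Trpm5, outside the rule for naming, reached 92.1, 104 and 137 against 88.7, 76.7 and 92.2 in corpus (0.89 ± 0.12). Rgs13, a regulator of G-protein signalling known from tuft and mast cells, was named by its size, at 488, 487 and 670.1 against 102, 85 and 195 and 5.8, 8 and 8.3 (2.91 ± 0.14).

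Parietal cells secrete acid and chief cells pepsinogen, and their lists held 1 call between them. Of 22 parietal cell genes tested 0 rose and 0 fell by limma (10 at an unadjusted p under 0.05), with a median of 0.03. Atp4a stood at 10352, 9754 and 10999.9 against midpoints of 6767, 6677 and 4991 (0.77 ± 0.15, adjusted p = 0.0614). The potassium channel subunit gene Kcne2 gave -0.29 ± 0.15, the anion exchanger gene Slc26a7 -0.39 ± 0.12 and the water channel gene Aqp4 -0.60 ± 0.15, and none of these 3, chosen after their values were seen, passed. The chief cell list had a median of -0.40 with 1 rise among 12 tested (2.46% of all genes rose). That rise, the acidic chitinase gene Chia1, reached 15639.5, 15021 and 15381 against 16375, 16341 and 11246 in corpus and was among the brightest signals (1.02 ± 0.12). Pepsinogen C (Pgc) gave 0.70 ± 0.13 (adjusted p = 0.0555), while the chief cell transcription factor gene Bhlha15 gave -0.53 ± 0.15 and the receptor gene Cckar -0.90 ± 0.18 without passing, the latter pair chosen after their values were seen. Among corpus-high genes (4-fold or more over forestomach), the median log2 ratio was 0.70 for those reaching a signal of 5000, 0.27 from 500 to 5000 and 0.17 up to 500. The part of saturation in the ratios of the brightest corpus products was not tested.

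Enteroendocrine genes had 1 rise and 2 falls among 20 tested, where 2.46% of all genes rose and 4.14% fell. Chromogranin A (Chga), of endocrine granules, stood at 1306, 981 and 1002 against midpoints of 1001, 1108 and 1112 (0.02 ± 0.15, adjusted p = 0.944). Secretogranin 2 (Scg2) fell below both neighbours (-0.92 ± 0.10), and the calcium channel subunit gene Cacna2d1 fell as well (-0.997 ± 0.17). The serotonin synthesis gene Tph1, also of mast cells, rose (0.62 ± 0.09). Calcb, a gene for the sensory neuropeptide CGRP, was 1 of the 25 genes above both neighbours named by size, at 287, 530.3 and 496 against 10, 14.7 and 22.7 in corpus and 70.8, 98.7 and 57.6 in forestomach (2.97 ± 0.17).

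Myeloid and defence genes rose in part. Of 28 macrophage and eosinophil genes tested 6 rose and 1 fell (2.46% of all genes rose and 4.14% fell). The 6 rises were above both neighbours. The chitinase-like gene Chil3, made by alternatively activated macrophages and also by some epithelia, stood at 629, 222 and 568 against midpoints of 51.4, 23.8 and 36.6 (3.27 ± 0.19). It has close relatives that may share its probe set. Arginase 1 (Arg1) stood at 821, 1028 and 1258 against 372, 436 and 518 in forestomach and 18.5, 3.4 and 25 in corpus (2.12 ± 0.10). Siglecf, a surface protein of eosinophils that tuft cells also carry, stood at 132, 133 and 216 (1.99 ± 0.17), and the fungal receptor gene Clec7a at 263, 254 and 194 against midpoints of 114, 87.6 and 97.8 (1.16 ± 0.13). Retnla fell to 682, 456 and 396 against 2505, 2224 and 1343 in forestomach (-1.26 ± 0.13). The eosinophil granule genes Epx and Prg2 and the eosinophil receptor genes Ccr3 and Il5ra did not pass the filter on low signal, and the part of such cells in these rises was not tested.

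The 13 genes tested for neutrophils and defence proteins had 5 rises, all above both neighbours, and 1 fall. Of all genes 2.46% rose and 4.14% fell, and 1.54% rose and also lay above both neighbours in every series. Ltf was counted among the neck mucous genes too, and S100a8 and S100a9 among the stress keratins and wound-edge genes. S100a8 stood at 161, 129 and 405 against 34.3, 59.9 and 72.7 in forestomach and 12.6, 11.4 and 8.3 in corpus, and its partner S100a9 at 1073, 1365 and 2084 against 927, 1011 and 1309 in forestomach. Cd177 stood at 270.5, 316 and 300 against midpoints of 33, 29.6 and 57.3 (2.66 ± 0.18). The chemokine gene Ppbp, of platelets, was named by its size, at 121, 182 and 139 against midpoints of 18.2, 15.8 and 16.8 (2.54 ± 0.16). The corpus and forestomach signals of Ppbp reached at most 29.3, so the size of its rise depends on the pseudocount. The neutrophil receptor gene Cxcr2 fell to 7.6, 10.4 and 5.1, under the filter level of 29.0 to 36.5 (-0.99 ± 0.15). The neutrophil granule genes Elane, Camp and Mmp8 did not pass the filter, and the junction signals were 35.7, 9 and 7 for Mpo and 37.8, 37.8 and 22.3 for Ngp, while Ltf and Cd177, which neutrophils also carry, were above both neighbours. The part of neutrophils in these rises was not tested.

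Mast cell proteases split. The mucosal protease gene Mcpt2, which has close copies, stood at 696, 718 and 631 against 368, 498 and 613 in corpus (1.43 ± 0.19). The tryptase genes Tpsab1 and Tpsb2 gave 0.72 ± 0.12 and 0.68 ± 0.11, though another probe set of Tpsb2 gave -0.28. The connective tissue type protease gene Mcpt4 fell to 30.7, 42.2 and 33.9 against 168, 224 and 201 in forestomach (-1.37 ± 0.10). In all, 3 of 16 mast cell genes rose and 1 fell, where 2.46% of all genes rose and 4.14% fell. Of 35 chemokine and interleukin genes 5 rose and 2 fell, and Ccl17, Cx3cl1, Cxcr4 and Cxcl14 were above both neighbours (1.16 ± 0.11, 1.03 ± 0.10, 1.03 ± 0.12 and 0.93 ± 0.14). Among 14 genes of T, NK and B cells the immunoglobulin joining chain gene Jchain rose (0.67 ± 0.11) and 0 fell. The 25 genes of antigen presentation and the 31 of the interferon response had 0 calls by limma (10 and 10 at an unadjusted p under 0.05), with medians of 0.22 and 0.06.

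Smooth muscle had the highest share of falls of the 42 lists. Of 33 contractile and associated genes tested 26 fell, 0 rose and 7 did not pass (4.14% of all genes fell and 2.46% rose). The junction lay below the midpoint in all 3 series for 32 (33.2% of all genes did). The list median was -0.96, with -0.81, -0.94 and -1.22 in series 1, 2 and 3. Desmin (Des), the intermediate filament of muscle, stood at 1004, 1255 and 797 in the junction, 711, 1299 and 697 in corpus and 3759, 4865 and 4483 in forestomach (-1.37 ± 0.14, adjusted p = 0.0239). Smooth muscle myosin (Myh11) stood at 2842, 3252 and 1994, 2574, 3468 and 2402 and 8378, 8416 and 9143 in the same order (-1.11 ± 0.16). The junction arrays of both genes overlapped those of corpus and lay well under those of forestomach. The actin-binding gene Synpo2 (601, 541 and 577 against midpoints of 1618, 1586 and 1802, -1.52 ± 0.10) and the phosphatase inhibitor gene Ppp1r14a (-1.63 ± 0.10) fell further. The largest fall was that of the leiomodin gene Lmod1 (-1.66 ± 0.28), with series 3 furthest down (-1.21, -1.29 and -2.46). Smooth muscle actin (Acta2), chosen after its values were seen and bright in every tissue, gave -0.25 ± 0.10 and did not pass.

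The junction held a median of 97.2% of the corpus level and 34.3% of the forestomach level of these muscle genes. With forestomach at 25% of the mixture the list median was -0.60 and 3 of the 26 falls were still called, and with the forestomach shares fitted to all strongly differing genes it was -0.80 and 2 were. Des, Myh11, Synpo2, Lmod1 and Ldb3 lost their calls with the fitted shares (adjusted p = 0.0674, 0.0845, 0.0511, 0.0990 and 0.0663), as did Pln and Casq2 (0.0703 and 0.0696). Below both neighbours in all 3 series were 4 of the 33, among them the adhesion gene Mcam (-1.30 ± 0.10) and the calcium-handling genes phospholamban (Pln, -1.26 ± 0.18) and calsequestrin 2 (Casq2, -1.05 ± 0.16). These 3 were chosen after their values were seen. The amount of muscle under each stripe was not measured, and its part in the shortfall was not tested.

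The start regions of 2 muscle genes that fell, Ldb3 and Myl9, are shown because they hold a CArG box, the motif known to bind serum response factor in muscle genes. It was searched on both strands without mismatch and occurs in 3 of 28 windows of the muscle list (10.7%), 15 of 423 of genes called below (3.55%), 151 of 10935 tested (1.38%) and 1.57% of all 27025. Ldb3, an anchor of the contractile apparatus, had a log2 ratio of -1.42 ± 0.14 and the myosin light chain gene Myl9, shown for its motif only, one of -0.66 ± 0.11. Capitals mark the match, 35 bases before the start in Ldb3 (chr14:34588632-34588931, minus strand) and 161 in Myl9 (chr2:156775214-156775513, plus strand).
Ldb3: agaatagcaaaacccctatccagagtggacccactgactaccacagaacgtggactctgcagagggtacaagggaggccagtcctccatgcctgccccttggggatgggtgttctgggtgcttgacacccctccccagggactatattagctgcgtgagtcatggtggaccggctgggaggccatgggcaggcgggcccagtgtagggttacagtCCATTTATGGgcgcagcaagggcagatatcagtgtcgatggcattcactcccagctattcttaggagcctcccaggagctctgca
Myl9: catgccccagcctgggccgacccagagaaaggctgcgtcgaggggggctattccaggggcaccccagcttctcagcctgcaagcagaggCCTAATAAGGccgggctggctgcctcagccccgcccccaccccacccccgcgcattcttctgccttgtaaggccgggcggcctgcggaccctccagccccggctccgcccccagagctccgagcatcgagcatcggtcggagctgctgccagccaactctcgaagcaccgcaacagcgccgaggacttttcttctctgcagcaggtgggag

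**Figure D3:**
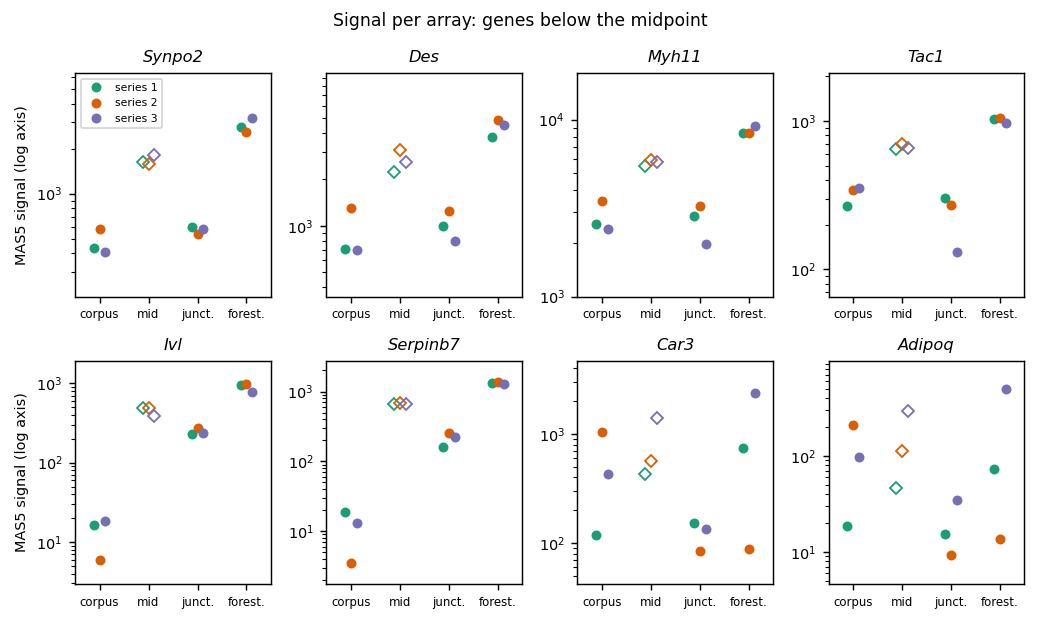
Signal per array on a log axis for 8 genes below the midpoint, with corpus, the midpoint (open diamonds), the junction and forestomach along the x axis and the 3 series in 3 colours. The junction points of Synpo2, Des and Myh11 lie beside those of corpus, those of Ivl and Serpinb7 between the neighbours, and those of Car3 and Adipoq under most other arrays.

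Genes of nerve and glia were short as well. Of 31 tested 9 fell and 0 rose (4.14% of all genes fell and 2.46% rose). In all 3 series 11 lay below both neighbours (7.42% of all genes did), and the list median was -0.64. Tachykinin 1 (Tac1), a neuropeptide of enteric neurons, stood at 304, 272 and 130.5 against midpoints of 649, 696 and 658 (-1.55 ± 0.25). The glial cadherin gene Cdh19 stood at 44.8, 47.1 and 66.7 against 69.6, 67.6 and 81.7 in corpus and 281, 189 and 299 in forestomach, below both in every series (-1.48 ± 0.13). The neural crest factor gene Hand2 gave -1.30 ± 0.10 and the neuronal RNA-binding gene Elavl3 -1.21 ± 0.17. The junction signals of Elavl3 were 13.8, 9 and 4.2, under the filter level of 29.0 to 36.5. The peptide gene Vip, outside the rule for naming, was below both neighbours too, at 428, 368 and 333 against 549, 579 and 649.7 in corpus (-1.06 ± 0.12). The enteric plexuses lie in and beside the muscle layers. The muscle list moved the same way on the same arrays, and its part in these falls was not tested.

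Fibroblast and matrix genes moved less. Of 39 tested 8 fell and 1 rose (median -0.21), where 4.14% of all genes fell and 2.46% rose. The matrix genes Sparcl1, Col14a1, Tnxb and Fap fell (-1.12 ± 0.11, -1.06 ± 0.09, -1.06 ± 0.12 and -0.86 ± 0.12). Versican (Vcan), a proteoglycan of loose and growing matrix, rose above both neighbours, at 184, 269.7 and 232 against midpoints of 74.3, 140.2 and 66.6 (1.25 ± 0.17). The main collagen gene Col1a1 gave -0.51 ± 0.11 and did not pass (adjusted p = 0.0686). Named by their size, the collagens Col19a1 and Col23a1 fell by 1.62 ± 0.09 and 1.60 ± 0.12 on the log2 scale. Vessel genes had 2 rises and 2 falls among 29 tested, to be read beside the same shares of all genes. The apelin receptor gene Aplnr, of endothelium, stood at 363, 404 and 380.2 against midpoints of 124, 148 and 100.1 (1.57 ± 0.12). Another probe set of Aplnr gave 0.75 and was not called. The genes that fell were Abcc9, below both neighbours (-0.82 ± 0.10), and Kcnj8 (-0.85 ± 0.15).

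Fat cell genes were among the largest falls but varied between series. Carbonic anhydrase 3 (Car3) stood at 152, 84.3 and 136 in the junction against 119.7, 1050.0 and 434 in corpus and 739, 88.5 and 2362 in forestomach, so its log2 ratios were -1.44, -2.62 and -3.27 in series 1, 2 and 3 (-2.45 ± 0.36, adjusted p = 0.0387). Adiponectin (Adipoq), a hormone of fat cells, was below both neighbours, at 15.4, 9.2 and 34.5 against 18.7, 211 and 97.7 and 73.6, 13.7 and 493 (-2.21 ± 0.36, adjusted p = 0.0444). In series 1 and 2 its junction and lower neighbour signals were under the filter level of 29.0 to 36.5. Its place below both neighbours rests on dim signals there. The high neighbour was corpus in series 2 and forestomach in series 1 and 3 for both genes. The lipid droplet gene Plin4 also fell below both neighbours (-1.15 ± 0.14), while Cidec, of the same droplets, rose (0.70 ± 0.12). In all, 3 of 12 fat cell genes fell and 1 rose (4.14% of all genes fell and 2.46% rose). Scd1, a fatty acid desaturase, fell to 318, 281 and 304 against midpoints of 740.4, 898 and 1365 (-1.66 ± 0.20), and with the elongase gene Elovl6 (-1.43 ± 0.17) it was 1 of 3 falls among 31 genes of cholesterol and fatty acid synthesis. The acute phase gene Orm1, also found in fat, fell by 2.36 ± 0.26 on the log2 scale. Its junction signals of 4.7, 4 and 26.9 were under the filter level.

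Genes below both neighbours also included several outside the lists. Npas4, an activity-dependent factor of neurons, stood at 1.6, 21.2 and 8.5 against 114, 119.8 and 119 in forestomach, and the germ cell RNA-binding gene Rbmxl2 at 6.5, 20.5 and 5.9 against 112, 120.1 and 123. The junction signals of both were under the filter level of 29.0 to 36.5, so the sizes depend on the pseudocount. Art3 was brighter, at 363, 376 and 280.2 against 403, 464 and 410.4 in corpus and 1865, 1526 and 1946 in forestomach (-1.68 ± 0.15). Pkdcc, a secreted kinase of skeletal development, gave -1.60 ± 0.14, the homeobox gene Zfhx4 -1.60 ± 0.10 and the lubricant gene Prg4 -1.58 ± 0.10. Nwd1, Wbscr25 and Tmem255a gave log2 ratios of -1.55 ± 0.12, -1.54 ± 0.10 and -1.56 ± 0.16, with Nwd1 and Wbscr25 at 19.9% and 16.3% of corpus. All 3 were below the filter level on the junction arrays. Further large falls between the neighbours were those of the calcineurin regulator gene Rcan2 (-1.69 ± 0.10) and of Sh3bgr (-1.62 ± 0.14).

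Hedgehog, Wnt and BMP and Tgfb genes had calls in both directions, where 2.46% of all genes rose and 4.14% fell. Hedgehog ligands are made by gastric epithelium and received by the cells under it. Sonic hedgehog (Shh), high in corpus, rose above the midpoint (1682, 1520.3 and 1629.9 against 944, 958 and 981, 0.74 ± 0.09). The response gene Gli1 was above both neighbours, only slightly in series 2. It stood at 93.3, 82.4 and 64.4 against 87.1, 81.8 and 45.2 in corpus (0.56 ± 0.09). With the fitted forestomach shares Shh and Gli1 lost their calls (limma adjusted p = 0.0856 and 0.0772). The co-receptor genes Gas1 and Cdon and the stomach mesenchyme factor gene Barx1 fell (-1.68 ± 0.17, -0.96 ± 0.14 and -0.73 ± 0.09), though another probe set of Gas1 gave 0.43. Thus 2 of 16 genes tested on the Hedgehog list, which counts the mesenchyme factor gene Barx1, rose and 3 fell. Among 37 Wnt pathway genes 4 rose and 4 fell. The ligand gene Wnt5a stood at 294, 353 and 297 against 162, 145 and 177 in corpus and 131, 128 and 121 in forestomach (1.07 ± 0.12), and the secreted antagonist genes Sfrp2 and Notum were above both neighbours as well (1.07 ± 0.15 and 0.99 ± 0.16). The epithelial ligand gene Wnt10a rose (1.07 ± 0.18), while the R-spondin gene Rspo3 fell to 429, 369 and 339 against 1598, 1096 and 1615 in forestomach (-1.16 ± 0.15).

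The BMP and Tgfb pathway had 1 rise and 3 falls among 36 tested. Over all genes the shares were 2.46% and 4.14%, for this list and the others of this paragraph. The activin subunit gene Inhbb rose above both neighbours (1.42 ± 0.14), though its other probe set gave -0.32, and the BMP antagonist gene Chrdl1 fell below both (-1.22 ± 0.18). In the retinoid pathway 2 of 20 rose, the retinol uptake receptor gene Stra6 (47.5, 31.1 and 45 against midpoints of 11, 7 and 4.8) and the retinoic acid synthesis gene Aldh1a3 (0.92 ± 0.16). All corpus and forestomach signals of Stra6 were under the filter level of 29.0 to 36.5. Stra6 thus passed the filter through its junction arrays alone, and the size of its rise depends on the pseudocount. Of 21 Notch genes the target gene Hes1 alone passed, above both neighbours (0.61 ± 0.10). Of 23 EGF family genes 0 rose and 2 fell, the ErbB inhibitor gene Lrig1 below both neighbours at 405, 301 and 273 (-0.72 ± 0.11) and the ligand gene Epgn (-0.67 ± 0.10). Among 26 stem and progenitor genes 4 rose and 2 fell, and the Wnt receptor gene Lgr5, a stem cell marker, gave 0.48 ± 0.11 without passing (adjusted p = 0.0811).

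Of 71 cell cycle genes 3 rose (2.46% of all genes did) and 0 fell, with a median of 0.28. The junction lay above the midpoint in all 3 series for 39 of them (20.6% of all genes), and 26 had an unadjusted p under 0.05. The checkpoint kinase gene Bub1b was above both neighbours (0.74 ± 0.09), and the proliferation marker gene Mki67 gave 0.53 ± 0.12 without passing (adjusted p = 0.0768). The 67 genes of oxidative phosphorylation, the 36 of the TCA cycle and fatty acid oxidation, the 20 of glycolysis and the 35 immediate early genes had 0 calls by limma (1, 3, 6 and 10 at an unadjusted p under 0.05), with medians of 0.07, -0.05, 0.13 and -0.13. All 67 oxidative phosphorylation genes lay between log2 ratios of -0.29 and 0.30. Of 48 detoxification genes 3 rose and 3 fell, where 6.59% of all genes were called in either direction.

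**Figure D4:**
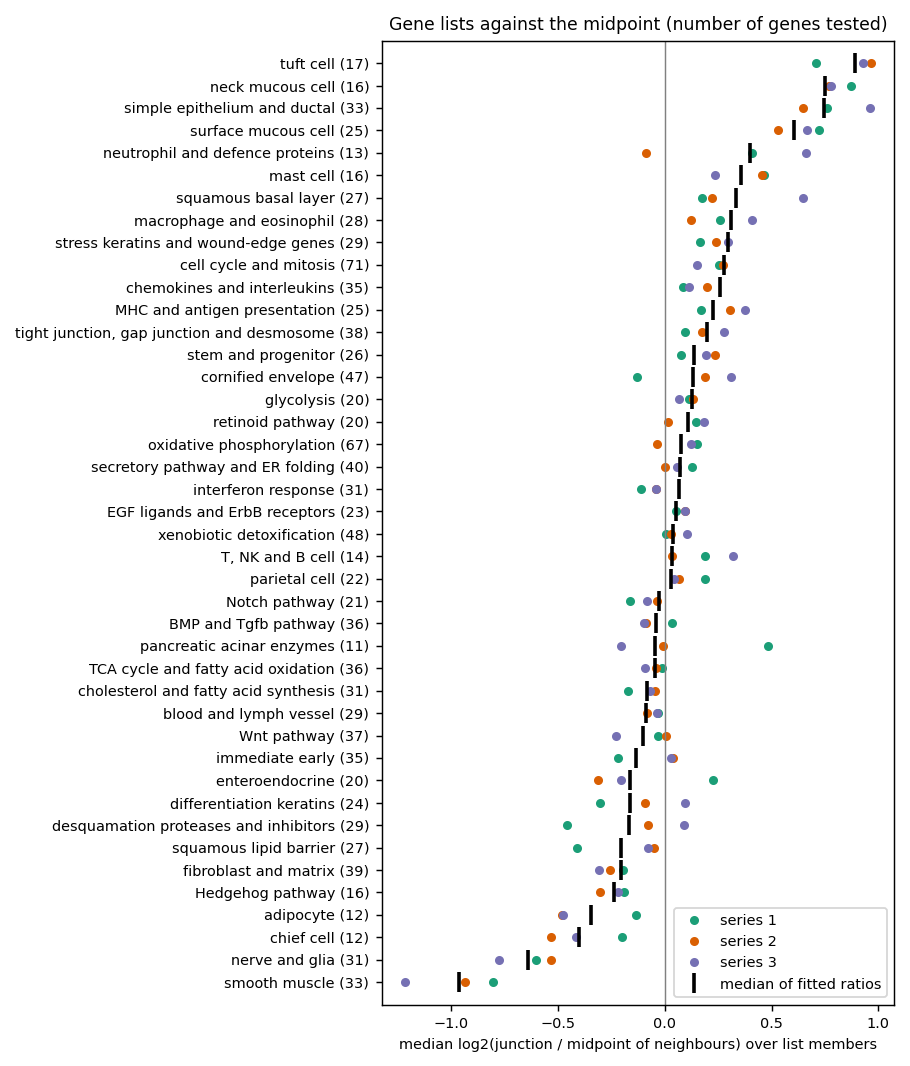
Median log2 ratio of junction to midpoint for the 42 gene lists, with the 3 series as coloured points and the median of the fitted ratios as a black mark; the number of genes tested stands beside each name. Tuft cell (0.89), neck mucous (0.75) and simple epithelium and ductal genes (0.75) lie highest, and nerve and glia (-0.64) and smooth muscle (-0.96) lowest.

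**Figure D5:**
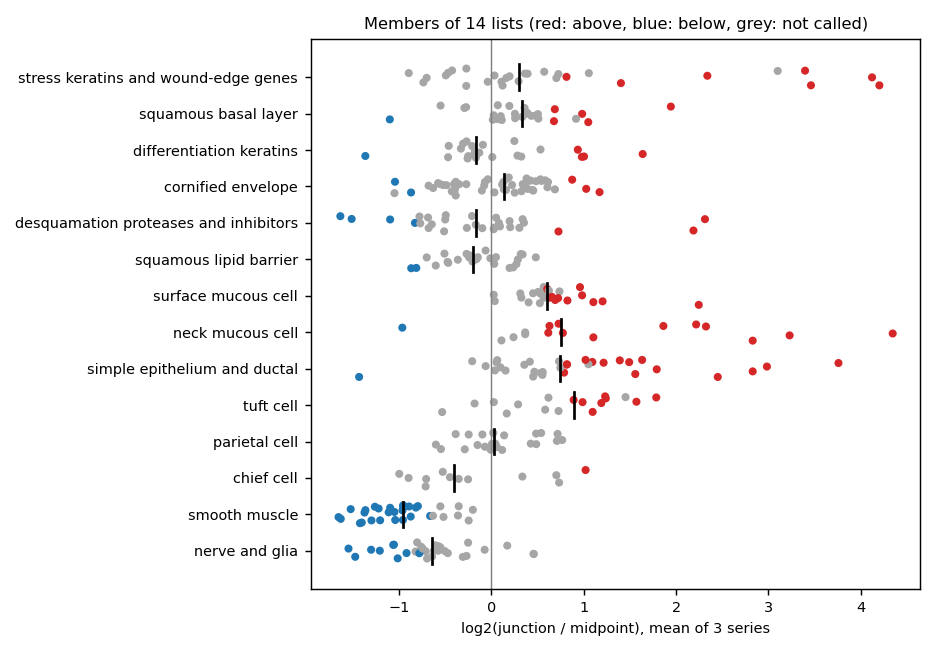
Log2 ratio of every gene tested on 14 of the lists, with red for genes called above, blue for genes called below, grey for genes not called and a black line at the list median. The 4 stress keratins are red at 3.40 to 4.20 on their list, with Defb4, not called, close under them. Of the 33 smooth muscle genes 26 are blue.

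The share of each neighbour in the mixture decides how genes between them read. A forestomach share was worked out for each of 1221 genes with a 4-fold or larger difference, from where the junction lay against both neighbours. Its median, called the fitted share, was 28.3%, 40.4% and 44.7% in series 1, 2 and 3, not 50%. Genes 4-fold or more higher in corpus rose in 123 of 612 (20.1%) and fell in 9, and those higher in forestomach rose in 26 of 609 (4.27%) and fell in 97 (15.9%). In series 1, 2 and 3 the median ratio of the corpus-high genes was 0.44, 0.26 and 0.15 and that of the forestomach-high genes -0.59, -0.18 and -0.09. With the fitted shares, 107 of the 210 genes above both neighbours were still called above, but only 12 of the 125 called above between the neighbours. Of the 357 genes called below between the neighbours 43 were still called, and of the 207 below both 39. Of the rises on each list, 7 of 7 were still called for stress keratins and wound-edge genes, 8 of 15 for simple epithelium and ductal genes, 6 of 11 for neck mucous, 3 of 8 for tuft cell and 1 of 11 for surface mucous genes, and of the 9 falls of nerve and glia 1 was. The 4 stress keratins, Cldn2 and Ltf kept their calls. Krt5 kept its call too (log2 ratio 1.44, adjusted p = 0.0400), whereas Krt8, Tff2, Ivl and Klk8 lost theirs, at 0.50, 0.82, -0.47 and -0.69. Against a midpoint taken on the log2 scale, which lies under the linear one, Serpinb7, Wfdc12, Tgm3, Ivl and Klk8 turned to log2 ratios of 0.40, 0.15, 0.60, 0.83 and 0.95, and Skint10 and Plcxd1 to 0.04 and 0.16. Krt14 turned to -0.05 without bright probe sets, where another of its probe sets stood for it.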

How the data were processed

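RNA pooled from 3 mice per sample was extracted with Trizol and hybridised as biotinylated cRNA to Affymetrix arrays, 3 each of corpus, forestomach and junction, per the labels. What the authors deposited for each probe set is a linear intensity, computed with MAS5 per the submitters' processing notes; the MAS5 version was not given in the sources used here. The trimmed mean of every array (2% off each end) is 200.0, and the largest signal is 22793.5. MAS5 signals are noisy when dim and can saturate when bright.

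Of 45101 probe sets, 64 controls were left out, 34958 had 1 gene symbol, 932 several and 9211 none. Entrez IDs linked 34754 of them to GRCm38.p6 symbols. The filter on low signal asked for at least 3 arrays over the 40th percentile of the same array (29.0 to 36.5), which 24870 probe sets with 1 symbol passed. The passing probe set with the highest mean log2 signal stood for its gene, giving 13637 of 18193 genes. Of 387 called genes with more than 1 such probe set, 1 had another called in the opposite direction.

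The log2((junction + 9.8) / (midpoint + 9.8)) of each series was fitted with an intercept in limma 3.58.1 (R 4.3.3), two-sided, with moderated variances (2 residual and 2.69 prior degrees of freedom). The pseudocount 9.8 is the median of the arrays' 20th percentiles. Benjamini-Hochberg adjustment ran over the 24870 probe sets, with a threshold of 0.05. Tested on data simulated for this comparison (24870 probe sets), the fit recovered 29.0% of features changed by 1 on the log2 scale and 69.0% of those changed by 2, and 5.8% of its calls were false. Noise was put on the simulated junction arrays only, drawn independently for each probe set at its observed spread. That false share need not hold for the calls on the real arrays. Series pair the arrays because the 3 stripes of a series came from the same mice, per the labels' design text. Within a series, residuals around the tissue means had correlations of -0.029 to 0.123 (mean 0.033, 9 pairs, 1 over 0.1).

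The comparison, its 42 lists (1378 symbols, 1271 on the array, 1155 tested) and the rule for naming were chosen with earlier results of these data known. That rule names the 25 largest rises above both neighbours, the 15 largest between them, the 20 largest falls, the 10 largest below both, up to 4 called genes per list and direction, and 24 fixed genes, passing over clone names. Alternatives were pseudocounts of 1 and 30.9, other filters, scalings, mixture shares, midpoints and probe set rules, no replicate block, limma's trend and robust options, and leaving out each series. Start regions come from RefSeq. Figures used Python 3.11.15 and matplotlib 3.10.9.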

Additional observations from a re-analysis of the deposited data

How the results depend on the processing

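The counts of genes above the midpoint, below it, above both neighbours and below both (335, 564, 210 and 207) depended on the setting, while direction rarely did: of the 899 called genes, 3 changed sign at 25% forestomach, 17 with a log2 midpoint, 3 with the mean of probe sets, 2 of 866 without bright probe sets and 0 under the other settings that give 1 value per gene (748 of them measured with the stricter filter). The counts were 163, 241, 131 and 91 with pseudocount 1, and 605, 1084, 306 and 396 with the larger pseudocount. They were 720, 1353, 306 and 437 with the stricter filter and 0 each with no filter or with limma's trend and robust options (3731 and 3627 genes at an unadjusted p under 0.05, lowest adjusted p = 0.0608 and 0.0924). With 25%, 75% and the fitted share of forestomach they were 182, 93, 107 and 41, then 1259, 1753, 329 and 405, then 143, 93, 107 and 39. A log2 midpoint gave 928 above, all probe sets 938 below and 388 below both, and median scaling 121 below both. Leaving out each series in turn, with 1 residual degree of freedom, gave 0 to 20 above, 0 to 1 below, 0 to 20 above both and 0 to 1 below both. Without the pairing by series (no replicate block) the counts were 551, 937, 279 and 340, and 311 and 512 of the genes called above and below were called again. The sign of a probe set's ratio could not change where only the filter, the pairing or limma's options differed.

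Some of the genes named changed sign. With a log2 midpoint, Ivl stood at 0.83, Klk8 at 0.95, Tgm3 at 0.60, Serpinb7 at 0.40, Wfdc12 at 0.15, Plcxd1 at 0.16, Skint10 at 0.044, Il1f5 at 1.60, Aqp4 at 0.87, Bhlha15 at 1.01, Cckar at 1.09, Kcne2 at 2.10 and Slc26a7 at 0.52. With 75% forestomach, Aqp4, Bhlha15, Cckar, Kcne2 and Slc26a7 stood at 0.30, 0.38, 0.053, 0.68 and 0.40, and Sox2 and Trp63 at -0.0385 and -0.13. With 25% forestomach, Ivl, Il1f5, Muc5ac and Chga stood at 0.057, 0.27, -0.032 and -0.51. Chga was at -0.26 with the fitted share and from -0.16 to 0.12 when 1 series was left out, and Krt14 was at -0.051 without bright probe sets. The cause was not tested. Dim signals and the 3 ratios per gene limit what could be called.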
